A study of Homo sapiens with 16 samples.

Results

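Human SW480 colon cancer cells carrying an empty vector were set against SW620 colon cancer cells carrying an empty vector, both grown in DMEM with serum and without added ligand. SW480 was derived from a primary colon adenocarcinoma and SW620 from a lymph node metastasis of the same tumour. The comparison was defined by the labels alone and held 4 of the 16 libraries of the series, 2 labelled SW480 with empty vector and 2 labelled SW620 with empty vector, numbered I and II in each group. The same lines without a vector (parental SW480 and parental SW620, 2 libraries each) and the same lines transduced with estrogen receptor beta and left without ligand (labelled SW480 with ERB and SW620 with ERB, 2 libraries each) gave the levels beside which the members are shown. The promoter of the vector, and whether the transduced cells were pools or clones, are not given in the sources used here. The other libraries were SW620 cells with ERB after solvent or estradiol, and they entered the fit of the spread. Levels are CPM, read counts brought to a common library total with TMM factors. Calls are those of edgeR's quasi-likelihood test with an adjusted p (Benjamini-Hochberg, over all 17464 genes tested) under 0.05. A fold change is the libraries labelled SW480 over SW620, on the log2 scale, so that a positive value means higher in the libraries labelled SW480.

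SW480 and SW620 are a widely used pair of lines for the step between a primary colon tumour and its metastasis. Parental SW480 cells are known for mesenchymal, matrix and inflammatory genes beside their epithelial ones, and parental SW620 cells keep more genes of the gut epithelium. An empty vector carries the backbone of an expression construct without the gene of interest and serves as the control for transduction and selection. A gap between the empty vector cells of the lines is therefore usually read against the gap between the parental lines.

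Total read counts were 13621574 in library I and 15354043 in library II labelled SW480 with empty vector, and 17409936 and 17227271 in libraries I and II of SW620 with empty vector. Library II labelled SW480 stood apart from the other libraries of the comparison. Its TMM factor was 0.585, against 0.978 in library I and 0.990 and 1.12 in SW620. Its 10 most abundant genes took 10.6% of its reads, against 6.80% in library I. Its levels rose with the GC content of transcripts (rank correlation across genes 0.70, against -0.50 in library I and 0.27 and -0.42 in SW620). Libraries I and II labelled SW480 with ERB shared these traits in part, with TMM factors of 0.622 and 0.850. Their 10 most abundant genes took 8.67% and 6.81% of reads, and their rank correlations with GC content were 0.76 and 0.65. Between the libraries I and II of a group, chi-square per degree of freedom was 280 in the group labelled SW480 and 26.8 in SW620 with empty vector. It was 174 in parental SW480 and 46.6 in parental SW620. Nothing in the labels says that libraries I and II came from separate cultures, so the spread between them may be technical. P-values rest on a spread estimated over all 8 groups of the fit, and not on that of these 4 libraries alone. ESR2, the gene of ERB, was near 0 in all 4 libraries, at 0.150 and 0.445 CPM in the libraries labelled SW480 and 0.0580 and 0.0518 CPM in SW620.

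The libraries labelled SW480 with empty vector did not show the expression of parental SW480. TNFAIP2, which responds to tumour necrosis factor, was at 2.93 and 5.57 CPM in the libraries labelled SW480 and at 4.70 and 3.62 CPM in SW620 with empty vector, while parental SW480 had 224 and 210 CPM. FN1, the gene of the matrix protein fibronectin, was at 13.6 and 9.46 CPM in the libraries labelled SW480 and at 12.2 and 10.8 CPM in SW620, against 530 and 557 CPM in parental SW480. For both genes the empty vector groups overlapped and lay far below parental SW480. Villin (VIL1), of the brush border, went with them in the other direction, at 610 and 652 CPM in the libraries labelled SW480 and 635 and 536 CPM in SW620, where parental SW480 had 110 and 98.8 CPM. Across genes, Pearson's r of log2 levels between library I labelled SW480 and the libraries of SW620 with empty vector was 0.966 and 0.973, and with parental SW480 it was 0.887 and 0.859. For library II the values were 0.929 and 0.894 with SW620, and 0.832 and 0.699 with parental SW480. Its highest values were with libraries I and II labelled SW480 with ERB, at 0.952 and 0.946. Library I had 0.858 and 0.931 with those libraries, below its values with SW620 with empty vector. Whether the shared rise of levels with GC content gave the high values of library II was not tested. These correlations describe libraries that share genes and preparation, and genes are not independent replicates. Because the levels of TNFAIP2, FN1 and VIL1 go against the label, the group is called by its label throughout, and every direction rests on that label.

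Between the empty vector groups 57 of 17464 genes were called, which is 0.326%. Of these, 4 (0.0229%) were higher and 53 (0.303%) lower in the libraries labelled SW480. Between the parental lines the same fit called 3147 genes (18.0%), 1953 higher (11.2%) and 1194 lower (6.84%) in SW480. Between the ERB groups 350 genes were called (2.0%), 299 higher (1.71%) and 51 lower (0.292%) in the libraries labelled SW480. The parental and the empty vector comparisons share no library. Over the 1953 genes higher in parental SW480, the median fold change was 3.08 between the parental lines, -0.01 between the empty vector groups and 0.61 between the ERB groups. Over the 1194 genes lower in parental SW480 it was -1.99 between the parental lines, -0.04 between the empty vector groups and -0.07 between the ERB groups. The 2 libraries labelled SW480 with empty vector differed in these medians. With library I alone they were 0.00 over the 1953 genes and -0.38 over the 1194. With library II alone they were -0.46 and 0.09, against -0.26 over all genes tested with both libraries. All 17464 genes had a median of -0.03 between the empty vector groups. The difference of the gaps itself, empty vector minus parental, was called for 1258 genes (7.20%), 525 higher (3.01%) and 733 lower (4.20%). The number called between the empty vector groups moved with the libraries used: it was 4319 without library I labelled SW480, 38 without library II, and 10 without either library of SW620. The fit of these 4 libraries alone called 0 genes, with 274 at an unadjusted p under 0.05, against 1839 such genes in the fit of 16 libraries; DESeq2 called 274 and limma-voom 82. With offsets that remove each library's trend with GC content and length, 338 genes were called (1.94%), 105 higher (0.601%) and 233 lower (1.33%). Of the 57 genes, 54 were also called with these offsets, and HIST1H2AC, STXBP6 and APOL6 were not.

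**Figure D1:**
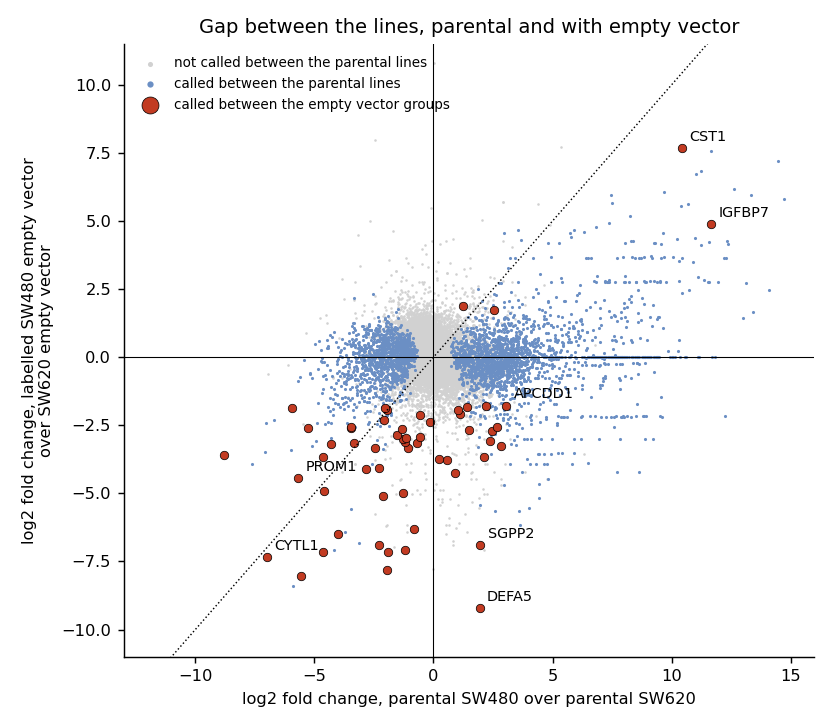
Each point is 1 of 17464 genes, with its log2 fold change between the parental lines on the x axis and between the empty vector groups on the y axis, labelled SW480 over SW620 on both; the dotted line marks equal gaps. Genes called between the parental lines lie along the horizontal 0 line, where the median of those higher in parental SW480 is -0.01, and most of the 57 genes called between the empty vector groups lie below it.

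A gene kept its call with each of the 4 libraries left out in turn in 10 cases, and all 10 were lower in the libraries labelled SW480: CYTL1, TMEM178B, DEFA5, SGPP2, ATP6V0A4, ARHGAP22, PROM1, DRAXIN, CPVL and B3GAT1. The other 47 lost it without either library of SW620. Without library II labelled SW480, 25 of the 57 kept it, and without library I all 57 did.

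The 4 higher genes were also higher in parental SW480, as were 11.2% of all genes. CST1, which encodes the secreted protease inhibitor cystatin SN, was at 8.56 and 39.0 CPM in the libraries labelled SW480 and at 0.0580 and 0.155 CPM in SW620, from 114 and 350 reads against 1 and 3. Its ratio over the summed reads was 190.2 (95% counting interval 73.8 to 701, which here and below covers counting error only), and its fitted fold change was 7.66 (SE 0.99, adjusted p = 0.0074). Parental SW480 had 598 and 183 CPM of it, so the libraries labelled SW480 with empty vector held 6.08% of the parental mean. IGFBP7, a secreted binding protein of insulin-like growth factors, was at 1.73 and 2.003 CPM in the libraries labelled SW480 and at 0.0580 and 0.0518 CPM in SW620, and parental SW480 had 299 and 199 CPM. Its ratio was 33.6 (8.73 to 287), and the gap was smaller than between the parental lines (difference of the gaps -6.76, adjusted p = 0.029). NRP1, the gene of neuropilin 1, a coreceptor of VEGF and semaphorins, was at 23.4 and 18.7 CPM in the libraries labelled SW480 and at 6.04 and 6.73 CPM in SW620 (fold change 1.72, SE 0.32, adjusted p = 0.047). SHROOM2, which encodes an actin-binding protein, was at 9.54 and 10.1 CPM in the libraries labelled SW480 and at 2.55 and 2.79 CPM in SW620 (1.87, SE 0.33, adjusted p = 0.038). SHROOM2 exceeded both parental SW480 libraries, which had 3.33 and 4.36 CPM, and NRP1 lay below them at 45.3 and 49.8 CPM. The calls of CST1 and IGFBP7 were lost without either library of SW620 (adjusted p 0.091 to 0.24), and those of NRP1 and SHROOM2 also without library II labelled SW480 (0.059 to 0.53 over these 3 fits). Of the 4, 3 were also called higher in the libraries labelled SW480 with ERB, IGFBP7 at 7.68, CST1 at 11.23 and NRP1 at 1.45. Of all genes, 1.71% were called higher there.

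Of the 53 lower genes, 26 were also lower in parental SW480 than in parental SW620, as were 6.84% of all genes. For these 26 the direction with vector was that of the parental lines. CYTL1, which encodes a secreted cytokine-like protein, was at 0.150 and 0.111 CPM in the libraries labelled SW480 and at 23.7 and 21.8 CPM in SW620 (ratio 169-fold lower, counting interval 57.6 to 821; fitted fold change -7.33, SE 0.66, adjusted p = 0.0010). Parental SW480 had 0.432 and 0.0873 CPM and parental SW620 27.7 and 35.6 CPM, a fold change of -6.98. The gaps with vector and without it differed by -0.35 (adjusted p = 0.83). TMEM178B, a transmembrane protein gene, was at 0.225 and 0 CPM in the libraries labelled SW480 and at 17.6 and 21.3 CPM in SW620 (-7.14, adjusted p = 0.0010), with 0.803 and 0.524 CPM in parental SW480. PROM1, the gene of the stem cell surface glycoprotein CD133, was at 1.13 and 0.445 CPM in the libraries labelled SW480 and at 12.2 and 23.3 CPM in SW620 (-4.44, SE 0.55, adjusted p = 0.0052). ARHGAP22, a regulator of Rac GTPases, was at 0.300 and 0.445 CPM in the libraries labelled SW480 and at 12.4 and 9.88 CPM in SW620 (-4.91, SE 0.50). In all of these, parental SW480 was as low as the libraries labelled SW480, within a few CPM. CPVL and CPE, both carboxypeptidase genes, had fold changes of -3.65 and -3.17, and CHGB, a protein of neuroendocrine granules, -2.59. PLXNA2, a semaphorin receptor gene, differed in degree: it was at 3.53 and 4.79 CPM in the libraries labelled SW480 and at 16.1 and 14.2 CPM in SW620, while parental SW480 had 0.185 and 0.218 CPM, and its gap was smaller than the parental one (difference of the gaps 4.08, adjusted p = 0.00089).

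**Figure D2:**
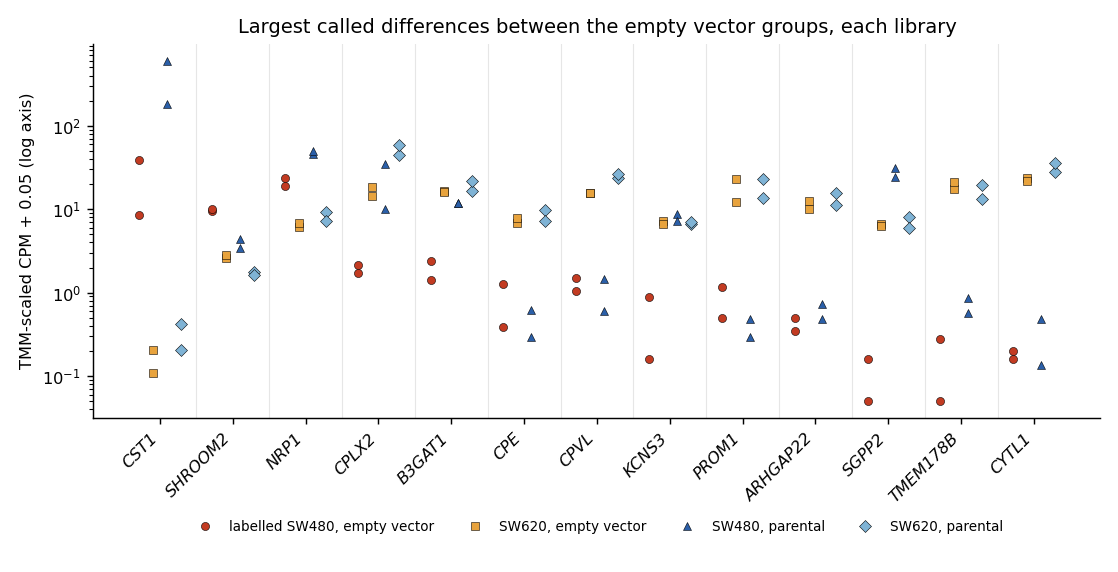
TMM-scaled CPM plus 0.05, on a log axis, of the 13 called genes that had the largest fold changes and a mean of at least 5 CPM in one group, each point 1 library, labelled SW480 left of SW620. CST1, SHROOM2 and NRP1 are higher with empty vector in the libraries labelled SW480; the other 10 are lower, and for CYTL1, TMEM178B, PROM1 and ARHGAP22 parental SW480 lies as low.

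The other 27 lower genes were not called lower between the parental lines. Of these, 14 were not called between the parental lines. The other 13 were called in the opposite direction, higher in parental SW480, as were 11.2% of all genes. APCDD1, an inhibitor of WNT signalling, was at 29.7 and 25.2 CPM in the libraries labelled SW480 and at 98.3 and 90.0 CPM in SW620 with empty vector (fold change -1.78, SE 0.26, adjusted p = 0.014). Parental SW480 had 726 and 918 CPM and parental SW620 92.9 and 104 CPM, so the libraries labelled SW480 lay under every library of both lines. SGPP2, which encodes a sphingosine-1-phosphate phosphatase, was at 0 and 0.111 CPM in the libraries labelled SW480 and at 6.67 and 6.21 CPM in SW620 (-6.91, SE 0.67, adjusted p = 0.0010), with 24.2 and 31.1 CPM in parental SW480. DEFA5, a Paneth cell defensin, had no read in either library labelled SW480, against 4.87 and 4.35 CPM in SW620, and was at least 34.2-fold lower (floor of 3 reads over the group). It was at 3.40 and 1.96 CPM in parental SW480 and at 0.682 and 0.701 CPM in parental SW620. CLU, the gene of the secreted chaperone clusterin, was at 2.78 and 6.34 CPM in the libraries labelled SW480 and at 33.7 and 24.6 CPM in SW620 (-2.69, SE 0.44, adjusted p = 0.025), with 148 and 94.3 CPM in parental SW480. CD44, the hyaluronan receptor, was at 4.73 and 3.12 CPM in the libraries labelled SW480 and at 13.7 and 13.9 CPM in SW620 (-1.80, adjusted p = 0.045), with 105 and 67.7 CPM in parental SW480. The ephrin receptor gene EPHA4 (-2.57), the antiviral deaminase gene APOBEC3G (-2.09), C14orf132 (-1.84), STXBP6 (-2.72), APOL6 (-3.26) and the histone gene HIST1H2AC (-1.94, a gene with near-identical copies and so uncertain) had the same order. The calls of APCDD1, CD44 and CLU were lost when a library of SW620 was left out (adjusted p 0.087 to 0.34), and those of APCDD1 and CD44 also without library II labelled SW480 (0.059 and 0.16). In these bulk libraries, fewer cells with a transcript and less of it per cell cannot be told apart.

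Counted over the 53 lower genes, 34 lay in both libraries labelled SW480 under all 6 libraries of SW620 with empty vector and of both parental lines; of all 17464 genes 958 did so (5.49%). Against all 14 other libraries of the series it was 26 of the 53, and 266 of all genes (1.52%). The 53 were selected as lower than 2 of these libraries, so the counts are a description. Between the ERB groups, 20 of the 53 were called lower in the libraries labelled SW480 and 0 higher, where 0.292% of all genes were lower and 1.71% higher. Of the 53, 8 had no read in the libraries labelled SW480, among them MYCN, a MYC family transcription factor gene, at least 8.13-fold lower, and CES1, a carboxylesterase gene, at least 12.8-fold lower; SW620 had 1.04 and 1.14 CPM of MYCN and 1.97 and 1.501 CPM of CES1, whose close pseudogene copy leaves its count uncertain. Low genes made up much of the list, 27 of the 53 having a mean under 5 CPM in SW620. Several of the 53 are antisense transcripts (NOVA1-AS1, SHANK2-AS1, C20orf166-AS1, DBH-AS1), for which the reads of the partner gene cannot be told apart where counting did not use the strand.

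**Figure D3:**
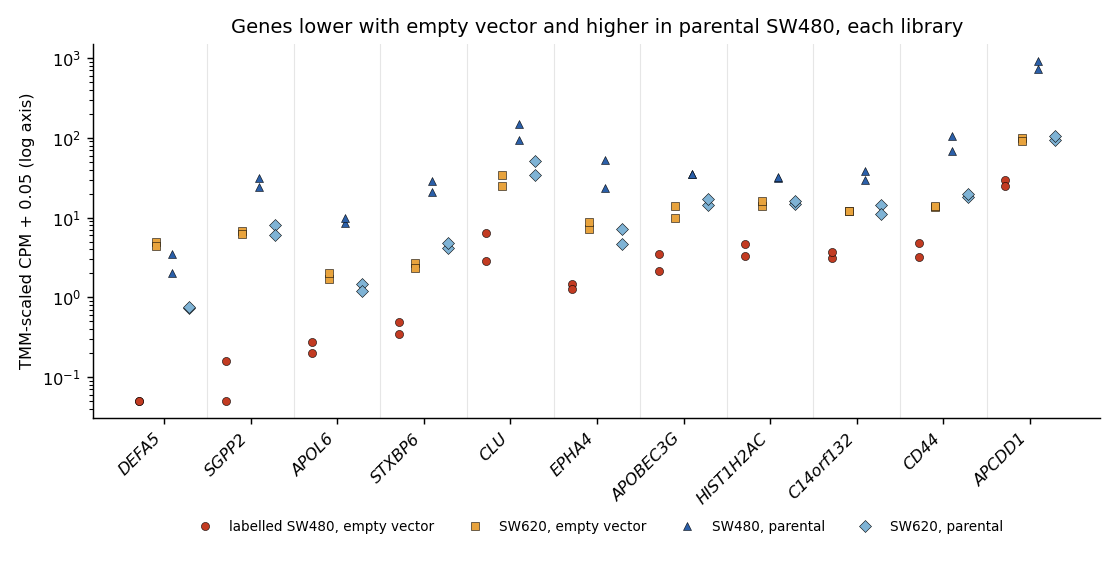
TMM-scaled CPM plus 0.05, on a log axis, of 11 of the 13 genes called lower with empty vector in the libraries labelled SW480 and called higher in parental SW480 than in parental SW620; each point is 1 library. In each gene the 2 libraries labelled SW480 with empty vector lie under the 6 others shown, for example APCDD1 at 29.7 and 25.2 CPM.

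Genes not called between the parental lines included KCNS3, a potassium channel subunit gene. It was at 0.826 and 0.111 CPM in the libraries labelled SW480 and 7.20 and 6.57 CPM in SW620 (-3.75, adjusted p = 0.025). Parental SW480 had 8.77 and 7.24 CPM of it. B3GAT1, which makes the HNK-1 carbohydrate, was at 1.35 and 2.34 CPM in the libraries labelled SW480 and 16.5 and 15.99 CPM in SW620 (-3.15, SE 0.37, adjusted p = 0.0038), with 11.7 and 11.8 CPM in parental SW480. DRAXIN, a secreted axon guidance protein gene, was at 0.0751 and 0.111 CPM in the libraries labelled SW480 and 1.74 and 1.97 CPM in SW620 (-4.25), with 4.57 and 4.76 CPM in parental SW480. The synaptic gene CPLX2 was at 2.103 and 1.67 CPM in the libraries labelled SW480 and 18.5 and 14.5 CPM in SW620 (-3.11, adjusted p = 0.025). CRMP1, which acts in axon growth, was at 5.86 and 9.13 CPM in the libraries labelled SW480 and 36.6 and 28.3 CPM in SW620 (-2.12, adjusted p = 0.024). Fold changes between the parental lines, not called, were 0.23 for KCNS3, -0.71 for B3GAT1, 0.89 for DRAXIN, -1.20 for CPLX2 and -0.55 for CRMP1. CPLX2 and CRMP1 were the 2 of 13 tested neuronal genes that were called, both lower, and 0 were higher; the median of the 13 was 0.00.

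By gene group, few members were called between the empty vector groups, where 0.326% of all genes were called. At that share a short list holds few or no called genes, so the counts say little about a list. Between the parental lines 18.0% of all genes were called. Of 26 tested NF-kB and inflammatory targets, 0 were higher and 0 lower with a median of 0.00, while between the parental lines 21 were higher and 0 lower in SW480 with a median of 4.30. The difference of the gaps was called lower for 13 of the 26. ICAM1, a leukocyte adhesion molecule, was at 6.23 and 14.2 CPM in the libraries labelled SW480 and at 3.13 and 2.74 CPM in SW620, against 255 and 227 CPM in parental SW480; it was not called (adjusted p = 0.13) and was called with GC and length offsets. CXCL1, a neutrophil chemokine, was at 0.601 and 0.334 CPM in the libraries labelled SW480 and at 1.04 and 0.776 CPM in SW620, against 30.7 and 31.8 CPM in parental SW480. Of 30 cell-matrix adhesion and YAP targets, 0 were called, with a median of 0.22, and between the parental lines 13 were higher. CYR61, a matricellular YAP target, was at 5.48 and 4.56 CPM in the libraries labelled SW480 and at 2.26 and 2.28 CPM in SW620, and parental SW480 had 241 and 170 CPM. Of 17 mesenchymal genes, CD44 was lower and 0 were higher, with a median of 0.71, while between the parental lines 11 were higher and 2 lower in SW480. With GC and length offsets 3 of the 17 were higher (ITGA5, MMP14 and WNT5A) and CD44 lower, with a median of 0.42. ITGA5, an integrin of the fibronectin receptor, was at 31.1 and 188 CPM in libraries I and II labelled SW480 and at 19.8 and 13.6 CPM in SW620. WNT5A, a WNT ligand, was at 0.676 and 0.111 CPM in the libraries labelled SW480 with 0 reads in SW620, at least 5.46-fold higher (adjusted p = 0.42), against 107 and 316 CPM in parental SW480. Of 21 WNT and stem cell targets, APCDD1 and CD44 were lower and 0 higher, with a median of -0.21. CCND1, a cyclin gene of the same list, was at 125 and 104 CPM in the libraries labelled SW480 and 126 and 144 CPM in SW620, where parental SW480 had 933 and 1177 CPM.

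Of 28 epithelial junction genes 0 were called, with a median of 0.32, and of 10 tested enterocyte genes 0, with a median of 0.17. CDH1, the epithelial cadherin gene, was at 110 and 74.1 CPM in the libraries labelled SW480 and at 51.0 and 49.2 CPM in SW620, groups that did not overlap (adjusted p = 0.47); of all genes, 12.3% were higher without overlap. Parental SW480 had 8.27 and 14.4 CPM of CDH1. HNF4A, an intestinal transcription factor, was at 198 and 248 CPM in the libraries labelled SW480 and at 191 and 163 CPM in SW620, against 27.7 and 30.6 CPM in parental SW480. TFF3, a goblet cell peptide, was at 28.9 and 188 CPM in the libraries labelled SW480 and at 126 and 93.5 CPM in SW620, and the hypoxia-induced carbonic anhydrase CA9 at 38.8 and 232 CPM in the libraries labelled SW480 and at 103 and 74.6 CPM in SW620; in both genes library I lay under SW620 and library II above it. Parental SW480 had 3.33 and 4.67 CPM of TFF3, and 4.08 and 3.49 CPM of CA9. Of 8 tested secretory genes CHGB was lower and 0 were higher, with a median of -0.54, or -0.22 with genes without reads at their bound. Interferon-stimulated genes (0 of 20 called, median -0.37), classical estrogen response genes (0 of 15, 0.23), immediate early genes (0 of 26, 0.31), cholesterol synthesis genes (0 of 24, -0.02), DNA replication genes (0 of 36, 0.01), G1 cyclins and CDK inhibitors (0 of 17, -0.11), NRF2 antioxidant genes (0 of 16, -0.18), autophagy and lysosome genes (0 of 16, 0.50), ER chaperones (0 of 21, -0.08), hypoxia and glycolysis genes (0 of 27, 0.56) and metallothioneins (0 of 9, 0.15, or 0.01 with genes without reads at their bound) had no called member. With GC and length offsets some members of the lists above were called, among them SLC2A3 (1.07) and NDRG1 (1.87) of the hypoxia and glycolysis genes, CLDN7 (1.79) of the junction genes, CDHR2 (-1.38) of the enterocyte genes and MT1E (-2.05) of the metallothioneins.

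A large difference lay between the libraries labelled SW480 themselves, in the genes of the integrated stress response. In this response, shortage of amino acids or stress of the endoplasmic reticulum raises translation of the transcription factor ATF4, which with CHOP and C/EBP partners activates genes for amino acid synthesis, uptake and tRNA charging. CHAC1, which degrades glutathione, was at 6.99 CPM in library I and 369 CPM in library II labelled SW480, and at 8.36 and 6.93 CPM in SW620. ASNS, asparagine synthetase, was at 56.0 CPM in library I and 469 CPM in library II labelled SW480, and at 62.9 and 59.7 CPM in SW620. AARS, now named AARS1, the alanyl-tRNA synthetase of the cytosol, was at 734 CPM in library I and 2211 CPM in library II labelled SW480, and at 863 and 698 CPM in SW620. In each of these genes library I lay within or next to the range of SW620 and library II far above it.

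The promoters of these 3 genes are shown because each holds the letters TGATGNAA, the core of the C/EBP-ATF response element bound by ATF4 with C/EBP partners, on either strand. They come from RefSeq (GRCh38.p14), run 5′ to 3′ on the strand of the gene from 250 bases before its start to 50 after, and have the match in capitals; the choice was made after the values were seen. ASNS lies on the minus strand (chr7:97872359-97872658, match beginning at position -68 from the start), CHAC1 on the plus strand (chr15:40953221-40953520, position -209, match on the opposite strand) and AARS1 on the minus strand (chr16:70289457-70289756, position -187, match on the opposite strand).
ASNS: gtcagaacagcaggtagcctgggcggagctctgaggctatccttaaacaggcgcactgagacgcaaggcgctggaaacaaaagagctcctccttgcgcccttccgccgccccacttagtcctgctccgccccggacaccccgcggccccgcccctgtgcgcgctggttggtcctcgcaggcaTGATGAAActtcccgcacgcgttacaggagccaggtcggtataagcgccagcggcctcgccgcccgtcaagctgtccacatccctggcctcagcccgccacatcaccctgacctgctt
CHAC1: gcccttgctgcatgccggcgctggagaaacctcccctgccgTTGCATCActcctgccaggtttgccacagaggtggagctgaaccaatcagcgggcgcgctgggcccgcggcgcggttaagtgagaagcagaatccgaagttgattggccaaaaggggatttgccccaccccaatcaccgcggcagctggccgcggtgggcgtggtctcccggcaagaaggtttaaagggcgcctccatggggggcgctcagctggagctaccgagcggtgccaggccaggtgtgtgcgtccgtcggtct
AARS1: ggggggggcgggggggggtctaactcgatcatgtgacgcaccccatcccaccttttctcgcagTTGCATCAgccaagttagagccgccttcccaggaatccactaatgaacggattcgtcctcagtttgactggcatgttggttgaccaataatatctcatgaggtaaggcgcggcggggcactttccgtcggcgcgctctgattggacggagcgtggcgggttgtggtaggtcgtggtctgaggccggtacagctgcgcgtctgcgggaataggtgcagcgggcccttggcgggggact
Of all 27305 genes with such a window, 1217 held the letters in at least 1 window (4.46%). Of the genes of the lists that had a window, they were held by 5 of 19 ATF4 and CHOP stress effectors, 3 of 11 serine, one-carbon and asparagine synthesis enzymes, 5 of 13 amino acid transporters and 7 of 16 synthetases. These matches are a description of letters and not of binding.

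Over the 22 ATF4 and CHOP stress effectors, 0 were called with both libraries, although the median fold change was 2.53. With library II alone the median was 3.42, against -0.25 over all genes. That fit holds 1 library labelled SW480 with empty vector against 2 of SW620. Its spread comes from the groups with 2 libraries and leaves out the difference between libraries I and II labelled SW480. With library I alone 0 were called and the median was 0.00; of all genes, 0.208% were called in that fit, 0.0164% higher and 0.191% lower. TRIB3, a pseudokinase that binds ATF4, was at 118 CPM in library I and 2653 CPM in library II labelled SW480, and at 127 and 95.3 CPM in SW620. DDIT4, an inhibitor of mTORC1, was at 25.2 CPM in library I and 644 CPM in library II, and at 18.9 and 15.9 CPM in SW620. SESN2, a leucine sensor, was at 7.81 CPM in library I and 277 CPM in library II, and at 8.71 and 6.003 CPM in SW620. The secreted factors ADM2 and INHBE were at 180 and 137 CPM in library II, and under 3 CPM in library I and SW620. FGF21, a stress hormone, had 0 reads in library I and 17.8 CPM in library II, and was at 0 and 0.0518 CPM in SW620. ATF4 itself was at 458 CPM in library I and 1093 CPM in library II, and at 371 and 331 CPM in SW620, and DDIT3, the gene of CHOP, at 16.5 and 47.3 CPM in libraries I and II labelled SW480, against 11.03 and 14.1 CPM in SW620. The pro-apoptotic gene PMAIP1 (2.33 and 1.34 CPM labelled SW480, 2.50 and 3.93 CPM in SW620), CEBPG (26.4 and 19.7, against 19.96 and 28.7 CPM) and TNFRSF10B (105 and 116, against 83.4 and 87.5 CPM) showed no rise of this size in library II. The levels of this library also rose with GC content, and with GC and length offsets library II alone had 18 of 22 higher, 0 lower and a median of 2.19, where 5.67% of all genes were higher. With the offsets and both libraries, 7 of 22 were higher: TRIB3, ADM2, CHAC1, SESN2, INHBE, ATF3 and DDIT4, with fold changes of 2.33 to 4.09 and adjusted p of 0.014 to 0.042. These 7 calls rest on library II: with library I alone and offsets 0 of 22 were called, where 0.771% of all genes were, 0.202% higher and 0.569% lower.

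**Figure D4:**
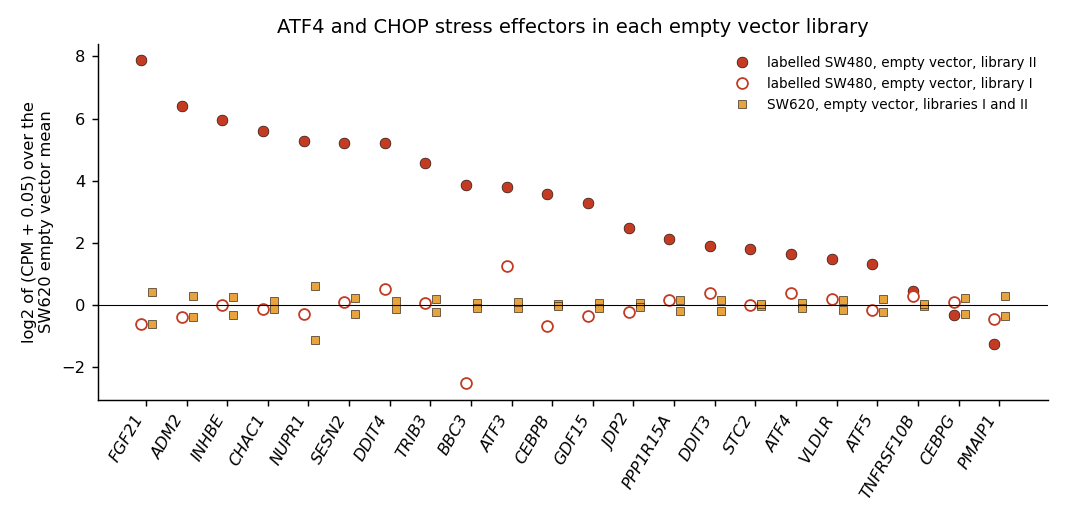
Log2 of CPM plus 0.05 over the mean of SW620 with empty vector, for the 22 ATF4 and CHOP stress effectors in the 2 libraries labelled SW480 (circles, library II filled) and the 2 of SW620 (squares). Library II lies above SW620 in 20 of 22 genes, and library I lies close to SW620 in most.

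Enzymes of serine, one-carbon and asparagine synthesis followed the same split. Of 16 genes 0 were called with both libraries (median 0.83). The median was 1.31 with library II alone (1.26 with offsets) and 0.09 with library I alone. Over all genes the median with library II alone was -0.25 (-0.27 with offsets). PHGDH, the first enzyme of serine synthesis, was at 48.1 CPM in library I and 1137 CPM in library II labelled SW480, and at 79.2 and 54.3 CPM in SW620. SHMT2, the mitochondrial serine hydroxymethyltransferase, was at 894 CPM in library I and 5124 CPM in library II, and at 962 and 698 CPM in SW620. CBS, of transsulfuration, was at 6.31 CPM in library I and 135 CPM in library II, and at 15.9 and 15.7 CPM in SW620. MTHFD1L (0.95 with offsets, SE 0.23, adjusted p = 0.0497) was the 1 enzyme called with both libraries and offsets; it was at 260 and 375 CPM in libraries I and II labelled SW480, both above SW620 at 176 and 155 CPM.

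Of 14 amino acid transporters, 0 were called with both libraries (median 1.09). The median was 1.60 with library II alone (0.64 with offsets) and 0.24 with library I alone. SLC7A5 and SLC3A2, the light and heavy chain of the large neutral amino acid transporter, were at 521 and 541 CPM in library I and 3310 and 2637 CPM in library II labelled SW480. SW620 had 964 and 778 CPM of SLC7A5, and 674 and 508 CPM of SLC3A2. SLC43A1, another carrier of neutral amino acids, was the 1 transporter called with both libraries and offsets (1.30, SE 0.22, adjusted p = 0.0099), at 94.9 and 543 CPM in libraries I and II labelled SW480 and 75.2 and 63.9 CPM in SW620. SLC7A6 fell with library II alone, at 61.0 CPM there and 189 CPM in library I, against 143 and 169 CPM in SW620. Of 20 cytosolic synthetases, 0 were called with both libraries. The median was 0.76 with library II alone (0.52 with offsets) and 0.23 with library I alone. GARS, of glycine, was at 371 and 707 CPM in libraries I and II labelled SW480 and at 204 and 206 CPM in SW620, and was called with both libraries and offsets (1.95, SE 0.41, adjusted p = 0.030). LARS, of leucine, was at 76.8 and 21.7 CPM in libraries I and II labelled SW480 and 63.7 and 90.6 CPM in SW620, so the synthetases did not all lie higher in library II. ER chaperones and the IRE1-XBP1 branch, another arm of the stress response, had 4 of 21 higher and 2 lower with library II alone and a median of -0.66, against 13.2% higher and 10.4% lower of all genes. With offsets 4 were higher and 4 lower, with a median of -0.05. HERPUD1, a higher gene in both, was at 55.7 and 211 CPM in libraries I and II labelled SW480 and 49.7 and 46.1 CPM in SW620.

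Other properties of library II moved with these genes, and their part in the stress gene levels was not tested. The 13 mitochondrially encoded mRNAs summed to 49496 and 122699 CPM in libraries I and II labelled SW480 and to 43383 and 37674 CPM in SW620. With both libraries 0 of them were called. Their median fold change was 1.63 with library II alone (2.13 with offsets) and 0.31 with library I alone. MT-CO2 was at 8766 and 24887 CPM in libraries I and II labelled SW480 and at 6675 and 5410 CPM in SW620. The 37 cytosolic ribosomal protein genes had medians of 0.85 with library II alone and 0.495 with offsets, against -0.25 and -0.27 over all genes. With library I alone their median was 0.24. The 20 clustered histone genes, 18 of them tested, summed to 52.1 and 139 CPM in libraries I and II labelled SW480 and to 141 and 117 CPM in SW620, with HIST1H2AC lower and 0 higher. The 32 G2 and mitosis genes had medians of -0.99 with library II alone and -0.35 with offsets, the latter near the -0.27 of all genes. With library I alone their median was 0.35, and 0 were called with both libraries. Among the genes with the largest differences between the libraries labelled SW480, UNC5B, a netrin receptor gene, was at 0.300 and 36.2 CPM in libraries I and II, and NPW, a neuropeptide gene, at 1.88 and 47.7 CPM. In the other direction, CDK1, the mitotic kinase, was at 37.5 and 2.89 CPM in libraries I and II labelled SW480 and at 24.7 and 42.4 CPM in SW620. HSPH1, a heat shock protein gene, was at 111 and 9.24 CPM in libraries I and II labelled SW480 and 50.5 and 75.6 CPM in SW620, and TRAM1, of ER translocation, at 22.2 and 1.67 CPM labelled SW480 and 14.6 and 23.3 CPM in SW620.

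**Figure D5:**
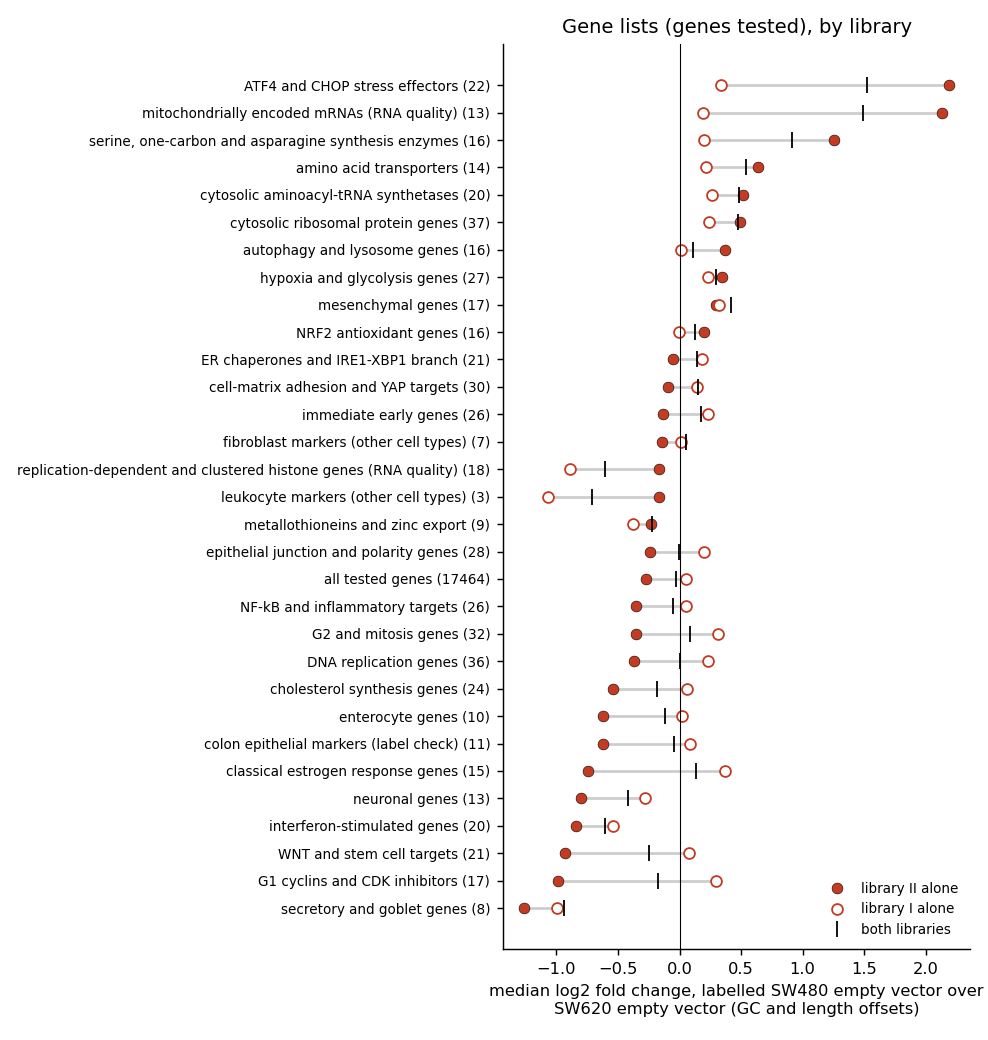
Median log2 fold change of each gene list between libraries labelled SW480 with empty vector and SW620 with empty vector; offsets for GC content and length were used, for library II alone (filled), library I alone (open) and both (bar); the number of tested genes is in brackets. The ATF4 and CHOP list is highest with library II, at 2.19, and lies at 0.33 with library I.

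Markers of other cell types stayed low in all 4 libraries. The 13 fibroblast markers summed to 10.6 and 23.4 CPM in libraries I and II labelled SW480 and to 11.2 and 11.1 CPM in SW620, with 0 reads of COL1A2, COL3A1, FAP, PDGFRA and POSTN in all 4; 0 of 7 tested were called. The 14 leukocyte markers summed to 1.502 and 2.23 CPM labelled SW480 and to 2.55 and 3.52 CPM in SW620, with 0 reads of CD3E, CD2, MS4A1, CD68 and FCGR3A. The 8 endothelial markers summed to 0.751 and 3.01 CPM labelled SW480 and to 1.22 and 0.880 CPM in SW620, with 0 reads of PECAM1, CDH5, KDR and CLDN5. The 14 colon epithelial markers summed to 8762 and 30658 CPM labelled SW480 and to 12289 and 9271 CPM in SW620, mostly from the keratin genes KRT8, KRT18 and KRT19, with 0 reads of CDX1.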

How the data were processed

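Libraries of mRNA were made with a kit that keeps the strand, per the labels' protocols. The authors deposited whole-number read counts per gene (63677 identifiers) and FPKM values per gene, each for 16 libraries. Per the submitters' processing notes, TopHat2 2.0.4, HTSeq 0.6.1, Cufflinks 2.1.1 and build GRCh37 were used; the strand setting of the counting is not given in these sources. Groups came from the labels.

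The counts were filtered (filterByExpr), TMM-scaled and fitted with edgeR 4.0.16 (R 4.3.3) over 16 libraries in 8 groups, which share 1 estimate of the spread. Fits with 1 library of a group assume that it varies like the others. GC and length offsets are natural splines with 5 degrees of freedom on values known for 98.0% of tested genes. Ratios, bounds and the floor of 3 reads (0.155 to 0.334 CPM of an empty vector library) use TMM-scaled totals. DESeq2 1.42.0, limma-voom and limma-trend (limma 3.58.1) on deposited FPKM were alternatives. edgeR and the offsets were tested on simulated data.

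Named genes were the called genes with 5 CPM or more and the largest fold changes in each direction, the called or lowest-p members of 31 lists, genes of earlier results, the genes with the largest differences of the gaps, and those with the largest differences between the libraries labelled SW480; the other genes named were called, or belong to the stress lists. Members, lists and rules were chosen with earlier results of these data known. The rule for promoters named called genes of the first lists; none was called, so promoters were chosen after the values were seen. Of the 53 lower genes, the median fold change moved by 0.15 with genes without reads at their bound.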

Additional observations from a re-analysis of the deposited data

Results flagged for a closer look

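The gap between the empty vector groups (labelled SW480 over SW620) was tested against the gap between the parental lines (SW480 over SW620). The fit of 16 libraries was used. Flagged here are 24 of the named genes called by this test, and these genes were partly chosen for this. Other named genes were also called by it and are not counted in the 24. Among them are DEFA5, DRAXIN, CD44, CLU, EPHA4, PLXNA2 and IGFBP7. Values are log2 differences of the gaps, empty vector minus parental. Inflammatory and matrix genes had lower gaps with empty vector: TNFAIP2 -6.49, CXCL1 -6.01, ICAM1 -5.22, FN1 -4.97 and CYR61 -4.73, as did the cell cycle genes CDKN1A (-5.37) and CCND1 (-2.93). SAA2 was at -14.41 (uncertain, since SAA1 is a near-identical copy), IQGAP2 at -11.79, KLF7 at -11.01, EPB41L4A at -10.14 and TLE4 at -10.06, where few or 0 reads outside parental SW480 make the fitted sizes uncertain. SGPP2 (-8.89), APCDD1 (-4.84), KCNS3 (-3.98) and B3GAT1 (-2.45) were among the genes lower between the empty vector groups.

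The gut epithelial genes VIL1 (2.46), HNF4A (2.5) and TFF3 (4.66) had higher gaps with empty vector, as did CA9 (5.39) and S100P (5.5). The stress genes CHAC1 (6.3), INHBE (7.65) and NUPR1 (7.67) were high in library II labelled SW480. Of the 24 differences, 12 kept their call with each of the 8 libraries left out in turn; 20 did without library II labelled SW480, 13 without library II of SW620 with empty vector and 17 without library II of parental SW620. CHAC1, INHBE, NUPR1 and S100P were among those that did not keep it in all 8 of these fits. Of these, INHBE kept it without library II labelled SW480, and CHAC1, NUPR1 and S100P did not.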

How the results depend on the processing

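With 57 genes called between the empty vector groups, all 57 kept their direction in every alternative in which they were tested, but the number called moved. It was 344 without a filter on low counts, 338 with GC and length offsets, 274 with DESeq2 (120 higher and 154 lower), 0 with these 4 libraries alone (smallest adjusted p 0.85), and from 10 to 4319 with a library left out. With offsets it was 3414 without library I and 141 without library II labelled SW480, and 437 when only SW620 libraries and those labelled SW480 with empty vector were fitted; these 3 fits and the crossed pairing were chosen after seeing the data. RLE size factors gave 47, a filter of 1 CPM in 4 libraries 56, limma-voom 82 and the FPKM fits 42, 63 and 69, where pseudocounts were 1, 0.1 and 1 without a filter.

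Between the parental lines, 3147 became 5623 with offsets, 1482 with the 4 libraries alone and from 1358 to 3910 with a library left out; the split moved to 2818 higher and 2805 lower with offsets. For the difference of the gaps, 1258 became 3398 without a filter, 3466 with offsets, 21 with the 8 libraries alone, 2784 with DESeq2 and from 345 to 7778 with a library left out.

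The deviations of same-numbered libraries from their group means correlated at -0.80 (empty vector) and -0.92 (parental) over 9098 genes. Trends with GC content were not removed from these deviations, so the correlations cannot show whether libraries were handled in pairs. With a replicate block 33 genes were called between the empty vector groups, 2570 between the parental lines and 829 for the difference of the gaps, and a crossed pairing of the empty vector libraries gave 41. In 2 genes a value crossed 0 and passed the threshold, with offsets and library II alone: VIL1 (-0.80, adjusted p = 0.027 in edgeR) and CEBPG (1.27, adjusted p = 0.017). For the called genes, 772 of 1117 alternative values kept the call and 345 did not. Depth limits genes near the floor of 3 reads. The causes of these changes were not tested.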
